A study of Homo sapiens with 3 samples.

Results

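Signals were examined for 10 genes that are switched on by, or feed back on, the RAS to ERK signalling pathway in RH30 cells: the phosphatase genes DUSP4, DUSP5 and DUSP6, the Sprouty genes SPRY2 and SPRY4, the ETS factor genes ETV4 and ETV5, and PHLDA1, EPHA2 and EMP1. Every probe set that names one of these genes and no other gene was taken, which gave 21 of the 19064 single-gene probe sets and 10 of 11963 genes. The genes were selected on earlier results of these same arrays, mainly the low DUSP6, ETV4, SPRY4 and EMP1 signals in mutated PNA cells, so the comparisons below are descriptions and support no claim about the group. RH30 is an alveolar rhabdomyosarcoma line, a muscle-lineage tumour line, grown in medium with 10% foetal bovine serum. Its cells received an anti-MYCN PNA at 10 µM for 12 hours, a mutated form of that PNA at 10 µM for 12 hours, or no treatment. A PNA (peptide nucleic acid) is a DNA analogue on a peptide-like backbone, here directed at the MYCN gene, and the submitters describe the mutated one as having no activity. Each condition had 1 array, 3 in all, so no value carries a replicate error, nothing can be tested, and each difference is one between single arrays.

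ERK is the last kinase of a cascade that runs from growth factor receptors through RAS, RAF and MEK. Active ERK induces its own brakes: DUSP6 encodes a cytoplasmic phosphatase that removes the activating phosphates of ERK, DUSP4 and DUSP5 encode nuclear phosphatases of the same family, and Sprouty proteins restrain signalling between receptor and RAF. ETV4 and ETV5 are ETS transcription factors of the PEA3 group whose transcription follows ERK activity, and the messages of several of these genes decay fast once ERK signalling stops.

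The values are MAS5 signals, which combine the probes of a probe set and put each array on 1 common mean. Median signals of the gene probe sets were 127 in anti-MYCN PNA, 112 in mutated PNA and 111 in untreated cells. Signals under 23.4, the pooled 25th percentile, were raised to it before log2 was taken, and a probe set passed the filter when its mean over the arrays reached 117, the pooled median. Of the 21 probe sets 13 passed, for 8 genes; neither DUSP4 probe set passed, nor did that of DUSP5, 4 of the 5 of PHLDA1 and 1 of the 3 of EMP1. Of the 13, 2 had both PNA signals under 117 (ETV4 and 1 DUSP6 probe set). The means of EMP1 201325_s_at and ETV5 216375_s_at also reached 117 only with the untreated signal included. Counts over the 13 are therefore read with those over all 21. The 9 muscle-lineage markers, MYOD1 and MYOG among them, all had a brightest probe set that passed, whereas among measured markers of other cells this held for 1 of 6 of fibroblasts, 1 of 6 of epithelium, 0 of 4 of leukocytes and 0 of 5 of endothelium. The array also carries 24 probe sets for spiked-in bacterial transcripts with poly-A tails, and each of the 24 read lowest in the anti-MYCN PNA sample, with a median ratio of 0.382 to mutated PNA and 0.410 to untreated, and the part of this in any anti-MYCN PNA value below was not tested. The untreated array is untreated by its title and its treatment text, while its source name gives mutated PNA, and every direction against untreated rests on the title.

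MYCN, the targeted gene, read 2202 in anti-MYCN PNA, 2804 in mutated PNA and 3313 in untreated cells by its brightest probe set, and its other 2 did not pass the filter. The log2 differences to untreated were −0.59 for anti-MYCN PNA and −0.24 for mutated PNA, which are smaller in size than those of DUSP6, ETV4 and the 2 brighter EMP1 probe sets on the same arrays. For anti-MYCN PNA the MYCN difference was close to those of SPRY4 (−0.59) and the brightest PHLDA1 probe set (−0.57). It was larger in size there than those of SPRY2 (−0.37) and EPHA2 (−0.13).

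DUSP6 and ETV4 were several-fold lower on both PNA arrays than on the untreated array, as were the brighter EMP1 probe sets, while SPRY4, EPHA2 and 2 of the 3 ETV5 probe sets were at least 2-fold lower in mutated PNA cells and closer to untreated in anti-MYCN PNA cells. Over all 21 probe sets the signal was below untreated in 18 for anti-MYCN PNA and in 20 for mutated PNA. The share of all probe sets below untreated was not counted. The median log2 difference of single-gene probe sets past the filter was 0.04 for anti-MYCN PNA and −0.003 for mutated PNA. In mutated PNA cells 11 of the 21, and 10 of the 13 that passed the filter (6 genes), were at least 2-fold lower than untreated, against 0.465% of the 9899 single-gene probe sets that passed. None was 2-fold higher, against 0.364%. In anti-MYCN PNA cells 8 of the 21 were at least 2-fold lower than untreated and 1 higher, and 6 and 0 of the 13, against 2.78% and 3.01% of the 9899. These percentages cover only probe sets past the filter, so they stand beside the counts of the 13 and not those of the 21. Both PNA arrays were at least 2-fold below untreated in 6 of the 13 (DUSP6, ETV4 and EMP1), against 0.0909%, or 9 probe sets in all. The other 3 of the 9, named after their values were seen, were those of MAFF, LMAN1 and STAM2. Since the genes were chosen on these differences, and both comparisons use the untreated array, nothing is read from these shares.

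**Figure D1:**
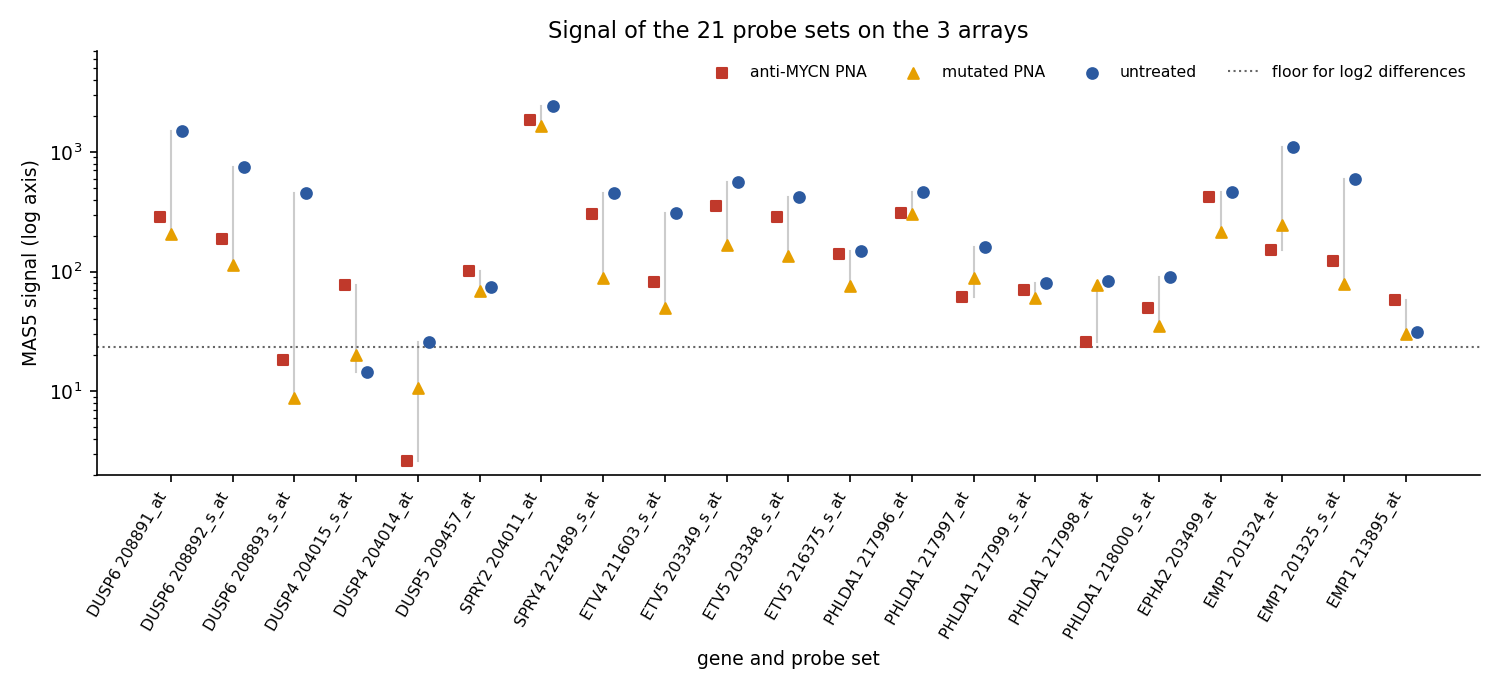
MAS5 signal (log axis) of each of the 21 probe sets in anti-MYCN PNA (squares), mutated PNA (triangles) and untreated cells (circles), with the floor of 23.4 as a dotted line and grey lines spanning the 3 values. DUSP6, ETV4 and the 2 brighter EMP1 probe sets have both PNA signals well under the untreated one, and for SPRY4, ETV5 and EPHA2 the anti-MYCN PNA signal lies between mutated PNA and untreated.

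Among the phosphatases, DUSP6 stood lowest relative to untreated. Its brightest probe set, 208891_at, read 284 in anti-MYCN PNA and 206 in mutated PNA cells, against 1502 in untreated cells. The anti-MYCN PNA signal was thus 18.9% and the mutated PNA signal 13.7% of untreated. The second, 208892_s_at, read 188 in anti-MYCN PNA and 114 in mutated PNA cells, against 751 in untreated cells. The third, 208893_s_at, read 18.4 in anti-MYCN PNA and 8.8 in mutated PNA cells, both below the floor, against 453 in untreated cells. All 3 probe sets therefore agreed in direction on both PNA arrays. With the floor, the log2 differences to untreated ranged from −4.28 to −2.0 for anti-MYCN PNA and from −4.28 to −2.72 for mutated PNA. The value of −4.28 is set by the floor; without it the same probe set gave −4.62 for anti-MYCN PNA and −5.69 for mutated PNA.

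The nuclear phosphatase genes were dim and did not share that pattern. DUSP5 read 102 in anti-MYCN PNA, 68.8 in mutated PNA and 74.8 in untreated cells, with log2 differences to untreated of 0.45 in anti-MYCN PNA and −0.12 in mutated PNA cells. The 2 DUSP4 probe sets went opposite ways. The 204015_s_at probe set read 77.5 in anti-MYCN PNA, 20.3 in mutated PNA and 14.4 in untreated cells. The 204014_at probe set read 2.6 in anti-MYCN PNA, 10.6 in mutated PNA and 26 in untreated cells. Of these 6 signals 4 lie below the floor, so DUSP4 has no usable direction on these arrays.

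The Sprouty genes differed from each other. SPRY4 was measured by 1 probe set, which read 305 in anti-MYCN PNA and 88.3 in mutated PNA cells, against 457 in untreated cells. The anti-MYCN PNA signal was 66.6% of untreated and the mutated PNA signal 19.3%. SPRY2 read 1866 in anti-MYCN PNA and 1634 in mutated PNA cells, against 2411 in untreated cells, so the order of the arrays was the same as for SPRY4 but the log2 differences to untreated were −0.37 in anti-MYCN PNA and −0.56 in mutated PNA cells. Of the 989 probe sets of like mean signal, 5 lay as far below untreated as SPRY2 or further in mutated PNA cells, and 208 in anti-MYCN PNA cells.

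The ETV factors also parted. ETV4, by 1 probe set, read 81.8 in anti-MYCN PNA and 50.1 in mutated PNA cells, against 307 in untreated cells, so the anti-MYCN PNA signal was 26.6% and the mutated PNA signal 16.3% of untreated. ETV5 was measured by 3 probe sets with the same order of arrays. The brightest, 203349_s_at, read 351 in anti-MYCN PNA and 168 in mutated PNA cells, against 556 in untreated cells. The next, 203348_s_at, read 287 in anti-MYCN PNA and 134 in mutated PNA cells, against 418 in untreated cells. The dimmest, 216375_s_at, read 139 in anti-MYCN PNA and 76.3 in mutated PNA cells, against 150 in untreated cells. On the log2 scale ETV5 was lower than untreated by differences between −0.67 and −0.11 for anti-MYCN PNA and between −1.73 and −0.98 for mutated PNA, the last just short of 2-fold.

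EPHA2, a receptor for ephrin-A ligands and a target of ERK signalling in several tumour types, read 423 in anti-MYCN PNA and 216 in mutated PNA cells, against 462 in untreated cells. Its anti-MYCN PNA signal was 91.5% of untreated and its mutated PNA signal 46.6%. EMP1, a tetraspan membrane protein gene, read 153 in anti-MYCN PNA and 246 in mutated PNA cells, against 1094 in untreated cells by 201324_at. By 201325_s_at it read 122 in anti-MYCN PNA and 78.9 in mutated PNA cells, against 592 in untreated cells. Both place EMP1 far below untreated on both PNA arrays, but they order the 2 PNA arrays oppositely. The remaining, dim EMP1 probe set, 213895_at, read 58.3 in anti-MYCN PNA, 30.2 in mutated PNA and 31.2 in untreated cells and does not show the difference.

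PHLDA1, which encodes a pleckstrin homology-like domain protein, was the least clear of the genes with a probe set past the filter. Its brightest probe set read 310 in anti-MYCN PNA and 304 in mutated PNA cells, against 459 in untreated cells, with log2 differences to untreated of −0.57 in anti-MYCN PNA and −0.59 in mutated PNA cells. The 4 dimmer ones were all below untreated on both PNA arrays, but by uneven amounts. Over the 5 the log2 differences to untreated ran from −1.67 to −0.19 for anti-MYCN PNA and from −1.35 to −0.09 for mutated PNA. The probe set lowest in anti-MYCN PNA cells, 217998_at, read 26 there, 78.1 in mutated PNA and 82.9 in untreated cells, while that lowest in mutated PNA cells, 218000_s_at, read 50 in anti-MYCN PNA, 35.3 in mutated PNA and 90.2 in untreated cells.

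The promoter windows of DUSP6 and EMP1 shared none of the short motifs searched. ETV4, also far below untreated on both PNA arrays, was not compared because it did not match the promoter table. Their sequences, and that of EPHA2, which was at least 2-fold lower in mutated PNA cells, are shown because their RefSeq (GRCh38.p14) windows end at the annotated start of the gene. Each is the 250 bases before that start, written 5′ to 3′ on the strand of the gene, with matches in capitals. The windows are chr12:89352502-89352751 (minus strand) for DUSP6, chr12:13196476-13196725 (plus strand) for EMP1 and chr1:16156070-16156319 (minus strand) for EPHA2.
DUSP6: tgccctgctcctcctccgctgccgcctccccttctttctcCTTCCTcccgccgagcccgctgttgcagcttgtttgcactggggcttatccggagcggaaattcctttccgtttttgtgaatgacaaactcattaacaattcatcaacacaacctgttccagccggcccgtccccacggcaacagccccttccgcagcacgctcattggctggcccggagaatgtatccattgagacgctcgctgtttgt
EMP1: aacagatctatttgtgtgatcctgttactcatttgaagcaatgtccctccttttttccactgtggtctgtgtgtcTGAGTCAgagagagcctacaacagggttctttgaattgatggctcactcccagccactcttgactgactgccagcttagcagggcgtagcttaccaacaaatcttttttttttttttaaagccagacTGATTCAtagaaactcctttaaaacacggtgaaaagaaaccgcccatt
EPHA2: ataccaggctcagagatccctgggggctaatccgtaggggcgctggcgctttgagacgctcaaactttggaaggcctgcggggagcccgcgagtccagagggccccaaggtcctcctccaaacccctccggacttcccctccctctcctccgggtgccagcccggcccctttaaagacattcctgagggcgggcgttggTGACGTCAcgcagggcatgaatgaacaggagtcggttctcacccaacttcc

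The words searched on both strands were TGACGTCA and its core TGACG (cyclic AMP response element), TGANTCA (AP-1), CCGGAA and AGGAAG (ETS factors) and CACGTG (an E-box of the kind MYC-family factors bind). EPHA2 holds TGACGTCA, which begins 51 bases before the start and, being its own reverse complement, contains the core on both strands; 1.65% of the 35116 promoter windows of the same length in the table hold it. EMP1 holds 2 matches to TGANTCA, beginning 175 and 48 bases before the start, and 6.57% of windows hold at least 1. DUSP6 holds 1 match to AGGAAG on the opposite strand, 210 bases before the start, a word found in 28.7% of windows. No window of these genes holds CACGTG, which 6.34% of windows do. A match is a description of the letters only. Of the 10 genes 6 matched the table, and the windows of SPRY2, SPRY4 and PHLDA1 are not printed. The 3 SPRY2 windows each hold AGGAAG, the word found in DUSP6, beginning 245, 104 and 63 bases before their starts, and 1 of them also holds TGACG and CCGGAA. That of SPRY4 holds TGACG, beginning 68 bases before the start, as 21.2% of windows do, and that of PHLDA1 holds CCGGAA, beginning 89 bases before the start, as 14.5% do.

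**Figure D2:**
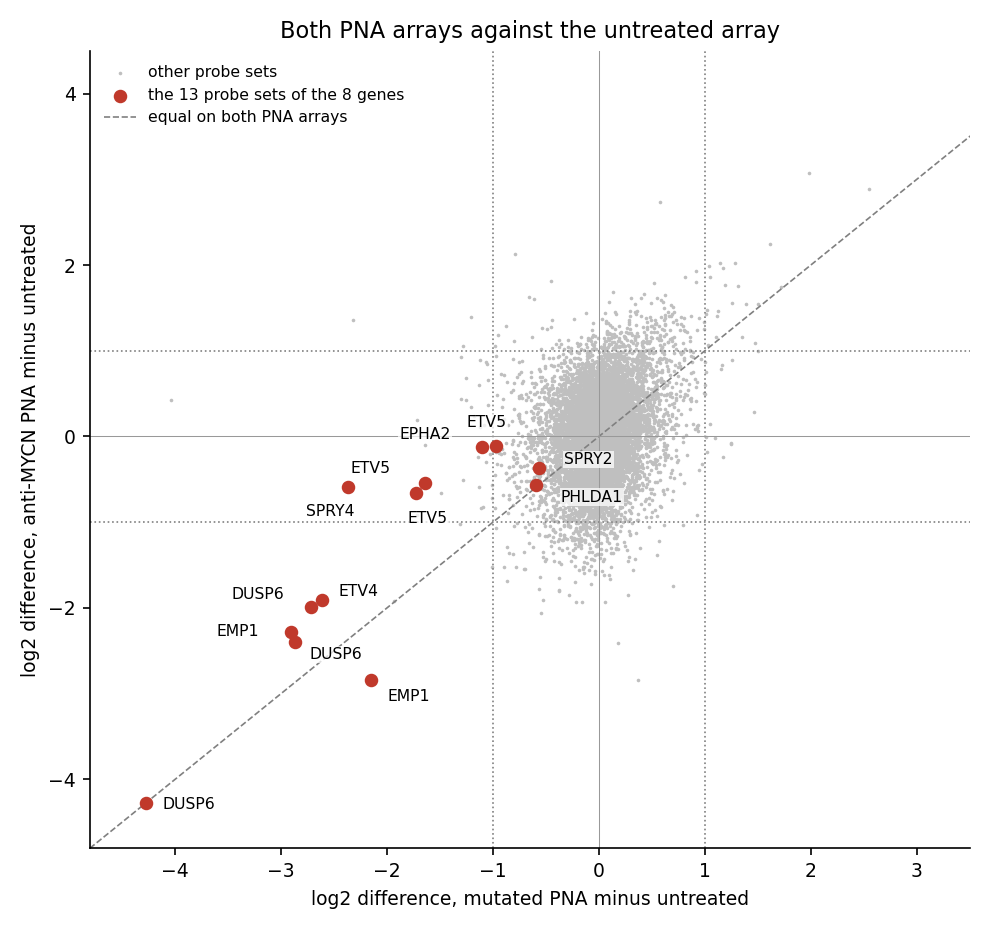
Log2 difference of anti-MYCN PNA minus untreated (vertical) against mutated PNA minus untreated (horizontal) for the 9899 single-gene probe sets past the filter, the 13 of the genes described in red, with dotted lines at 2-fold and a dashed line where both PNA arrays are equal. Both axes share the untreated array. DUSP6, ETV4 and EMP1 lie at the lower left near the dashed line, and SPRY4, ETV5 and EPHA2 lie above it, nearer to 0 on the vertical axis.

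Set against each other, the 2 PNA arrays differed most in SPRY4 among the 13 probe sets past the filter. At the same dose and time, SPRY4 was 3.45-fold higher in anti-MYCN PNA than in mutated PNA cells, a log2 difference of 1.79, and of the 989 probe sets of like mean signal 2 were as far above or further. The 2 brighter ETV5 probe sets were higher by 1.06 and 1.10, where 18 and 30 of the 990 and 989 probe sets of like signal were as high or higher, and the dimmest by 0.87. EPHA2 was higher by 0.97. Of the 21 probe sets 17 read higher in anti-MYCN PNA than in mutated PNA cells and 4 lower. The share of all probe sets in each direction was not counted, so nothing is read from this. The median difference was 0.04 over the 9899 past the filter and 0.17 in the dimmest of their 10 signal classes. At least 2-fold higher were 4 of the 21 and 3 of the 13, the latter against 2.74% of the 9899. Of the 3, SPRY4 alone stayed past 2-fold under median scaling, where the ETV5 probe sets gave 0.88 and 0.92, and all 3 are _s_at probe sets, so 0 are left without that kind. In the other direction 1 of the 21, the dim PHLDA1 probe set 217998_at with −1.59, and 0 of the 13 were at least 2-fold lower, the latter against 2.73%. The genes were chosen with these differences known.

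The other genes' probe sets past the filter differed less between the PNA arrays. For 95% of probe sets of the signal of DUSP6 208891_at the difference lay between −1.03 and 0.83, and that probe set differed by 0.47. The second DUSP6 probe set differed by 0.72, within a range of −1.08 to 1.02, and ETV4 by 0.71, within −1.30 to 1.44. SPRY2 differed by 0.19. The brightest PHLDA1 probe set differed by 0.03, which turned to −0.02 under quantile normalization and to −0.15 under median scaling, so it has no settled direction between the PNA arrays. The brighter EMP1 probe sets gave −0.69 and 0.63. These differences of probe sets past the filter lie within the range of probe sets of like signal, which with single arrays does not show that the PNA arrays were alike in these genes. Under the filter, DUSP4 204015_s_at differed by 1.73 with its mutated PNA signal raised to the floor, and by 1.93 without the floor. DUSP4 204014_at gave 0 with both PNA signals at the floor and −2.03 without it, which is larger in size than the SPRY4 difference. DUSP5 differed by 0.57 and EMP1 213895_at by 0.95.

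**Figure D3:**
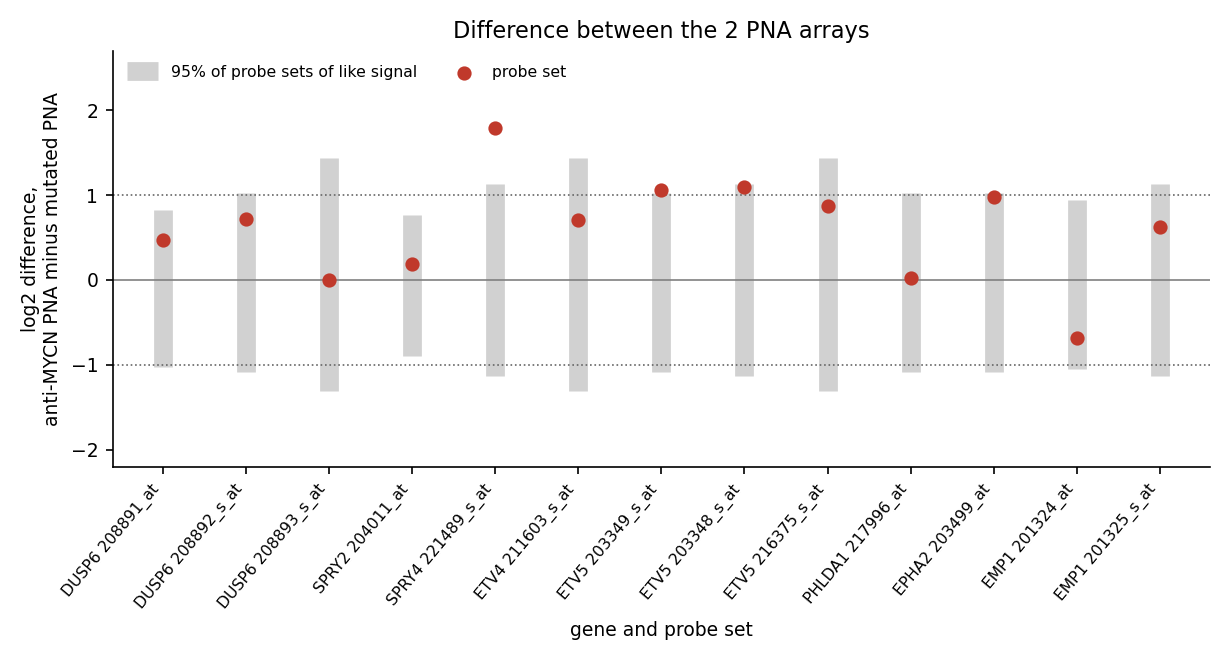
Log2 difference of anti-MYCN PNA minus mutated PNA for the 13 probe sets past the filter (points), with grey bars for the central 95% of probe sets of like mean signal and dotted lines at 2-fold. SPRY4 at 1.79 lies above its bar, the brightest ETV5 probe set at 1.06 just above, and the other 11 lie within theirs; the DUSP6 probe set at 0 has both PNA signals below the floor.

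The share of the drop in mutated PNA cells that was not seen in anti-MYCN PNA cells differed between genes. It is the anti-MYCN PNA minus mutated PNA difference as a percentage of the untreated minus mutated PNA difference, both on the log2 scale, so 0% puts anti-MYCN PNA at the mutated PNA level and 100% at untreated. It was 16.3% for the brightest DUSP6 probe set, 27.0% for ETV4 and −32.0% and 21.6% for the EMP1 probe sets. It was 61.5% and 66.8% for the 2 brighter ETV5 probe sets, 75.3% for SPRY4 and 88.3% for EPHA2. For the 36 other probe sets whose mutated PNA signal lay at least 2-fold under untreated, the median was 111%. Both parts of the ratio use the mutated PNA array, so a low value on that array alone raises it, and the genes described were chosen with these values known.

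Among the 10 genes, probe sets past the filter were ranked by distance from the brightest DUSP6 probe set, over both log2 differences to untreated. The other DUSP6 probe sets were left out of this ranking. Of those ranked, the nearest were EMP1 201325_s_at, at a distance of 0.13, ETV4 at 0.55 and EMP1 201324_at at 0.84. On both differences DUSP6 208892_s_at lay between the brightest DUSP6 probe set and ETV4, so it was nearer than ETV4. Nearest to SPRY4 were the 2 brighter ETV5 probe sets, at 0.65 and 0.73. Among the 6737 genes outside the 10, each by its brightest probe set, the nearest to DUSP6 were MAFF, ADAT1, STAM2, LMAN1 and DNAAF2, at distances from 1.05 to 2.13. MAFF, a small MAF transcription factor gene, read 113 in anti-MYCN PNA and 112 in mutated PNA cells, against 427 in untreated cells. Outside the 10, the nearest to SPRY4 were ADAT1, IL11, PLEKHG3, LMAN1 and CCND1, at distances from 0.74 to 1.27. IL11, a cytokine gene, read 374 in anti-MYCN PNA and 209 in mutated PNA cells, against 589 in untreated cells. CCND1, the cyclin D1 gene and a known output of ERK signalling, read 822 in anti-MYCN PNA and 441 in mutated PNA cells, against 975 in untreated cells, and its dimmer probe set differed from untreated by −0.25 in anti-MYCN PNA and −0.49 in mutated PNA cells. The measure is the straight-line distance over 2 differences from 3 arrays.

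**Figure D4:**
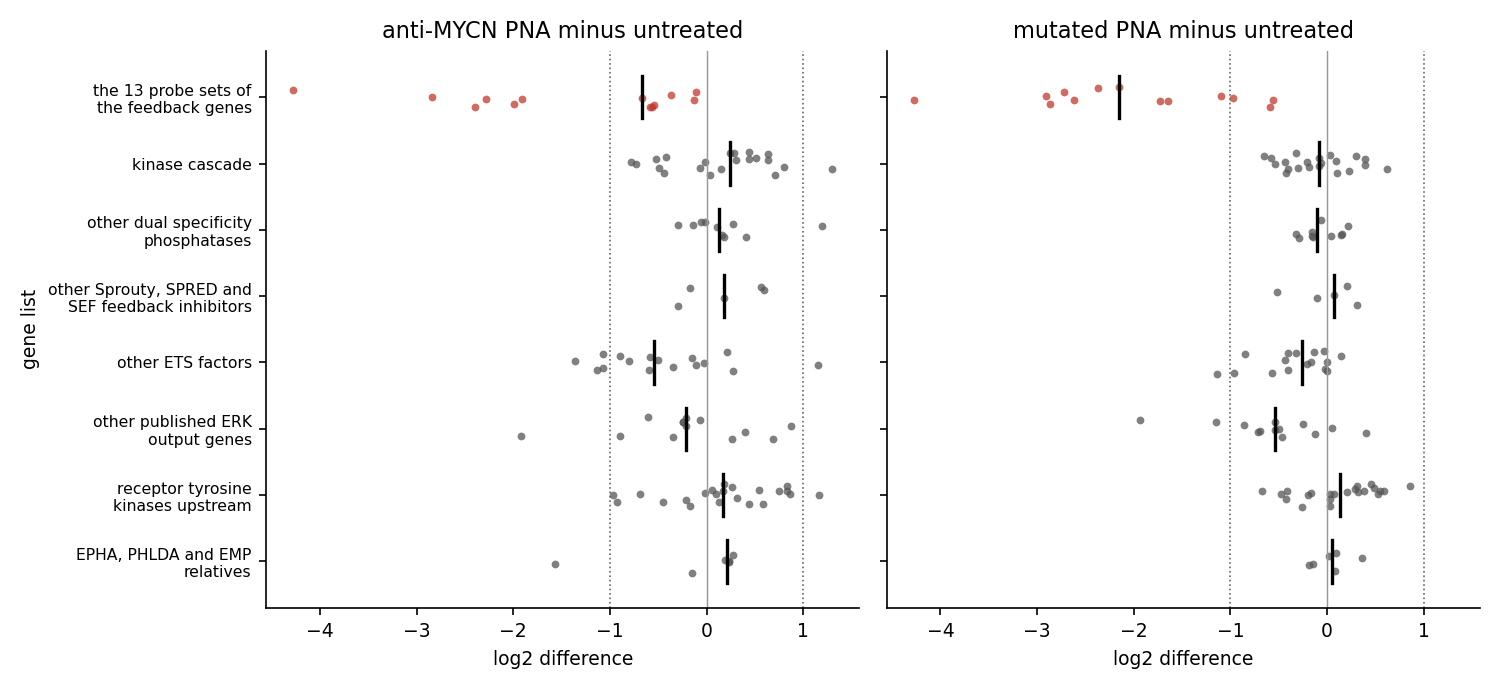
Log2 difference to untreated for anti-MYCN PNA (left) and mutated PNA (right), 1 point per probe set past the filter, for the genes described (red) and 7 lists of other ERK pathway genes (grey), with the list median as a black bar and dotted lines at 2-fold. The red medians are −0.67 for anti-MYCN PNA and −2.15 for mutated PNA, and the grey ones lie between −0.55 and 0.24 on the left and between −0.53 and 0.14 on the right.

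Of the genes elsewhere in the pathway, 7 lists covered 93 measured genes, for which 93 probe sets passed the filter. Genes named from them are given by their brightest probe set. In anti-MYCN PNA cells 6 of them (6.45%) were at least 2-fold lower than untreated and 4 (4.30%) higher, against 2.78% and 3.01% of all 9899. In mutated PNA cells 3 (3.23%) were lower and none higher, against 0.465% and 0.364%. The median log2 difference was 0.05 for anti-MYCN PNA and −0.13 for mutated PNA, against 0.04 for anti-MYCN PNA and −0.003 for mutated PNA over all 9899. Between the PNA arrays 3 were higher and 3 lower in anti-MYCN PNA cells (3.23% each, against 2.74% and 2.73%), with a median of 0.22.

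The list of other published ERK output genes, apart from the 10, had the lowest median in mutated PNA cells, −0.53 over 13 probe sets, with 2 at least 2-fold lower, MAFF and CCND1. Its median in anti-MYCN PNA cells was −0.21, with 1 lower. IER3, an early response gene, read 541 in anti-MYCN PNA and 554 in mutated PNA cells, against 1006 in untreated cells. HMGA2, a chromatin protein gene, read 2243 in anti-MYCN PNA and 2363 in mutated PNA cells, against 3421 in untreated cells. Not every gene of the list was lower. The probe sets of HMGA1, GDF15 and PLAUR past the filter lay above untreated in anti-MYCN PNA cells. In mutated PNA cells that of HMGA1 differed from untreated by 0.40 and that of GDF15 by −0.54. The brightest PLAUR probe set gave 0.05 there and the other −0.47.

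The other ETS factors had medians of −0.55 in anti-MYCN PNA and −0.26 in mutated PNA cells over 16 probe sets, with 4 at least 2-fold lower and 1 higher in anti-MYCN PNA cells and 1 lower in mutated PNA cells. ETV1, which completes the PEA3 group with ETV4 and ETV5, read 268 in anti-MYCN PNA and 382 in mutated PNA cells, against 687 in untreated cells by its brightest probe set. Its log2 differences to untreated were −1.36 in anti-MYCN PNA and −0.85 in mutated PNA cells. All 4 ETV1 probe sets past the filter were below untreated on both PNA arrays, but they did not agree on the order of those arrays, with anti-MYCN PNA minus mutated PNA between −0.51 and 0.54. GABPA, a widely expressed ETS factor, read 147 in anti-MYCN PNA and 228 in mutated PNA cells, against 309 in untreated cells. ELF2 differed from untreated by −0.34 in anti-MYCN PNA and −0.41 in mutated PNA cells. Its other probe set past the filter gave −0.81 in anti-MYCN PNA and −0.40 in mutated PNA cells.

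Past the filter, other brakes of the pathway lay closer to untreated than DUSP6 and, in mutated PNA cells, than SPRY4. The other dual specificity phosphatases had medians of 0.13 in anti-MYCN PNA and −0.10 in mutated PNA cells over 10 probe sets. Of these 1, the dimmer DUSP10 probe set past the filter, was at least 2-fold higher in anti-MYCN PNA cells. The brightest DUSP10 probe set differed from untreated by −0.02 in anti-MYCN PNA and 0.04 in mutated PNA cells. DUSP22 differed from untreated by −0.29 in anti-MYCN PNA and −0.32 in mutated PNA cells. DUSP3 differed by 0.11 in anti-MYCN PNA and 0.22 in mutated PNA cells, where 1 of its other 2 probe sets gave −0.14, and DUSP7 by −0.06 in anti-MYCN PNA and −0.29 in mutated PNA cells. The other Sprouty, SPRED and SEF group had none of 5 probe sets at 2-fold, with medians of 0.19 in anti-MYCN PNA and 0.08 in mutated PNA cells. Within it SPRY1 read 563 in anti-MYCN PNA and 443 in mutated PNA cells, against 633 in untreated cells, the order seen for SPRY2 and SPRY4. Its log2 difference to untreated in mutated PNA cells was −0.51, near the −0.56 of SPRY2. PEA15, which holds ERK in the cytoplasm, and LRIG1, a receptor inhibitor, were above untreated on both PNA arrays. The log2 difference of PEA15 was 0.60 in anti-MYCN PNA and 0.21 in mutated PNA cells, and that of LRIG1 was 0.56 in anti-MYCN PNA and 0.30 in mutated PNA cells.

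Upstream, the kinase cascade had medians of 0.24 in anti-MYCN PNA and −0.08 in mutated PNA cells over 21 probe sets, with 1 at 2-fold, the dimmer RPS6KA2 probe set, higher in anti-MYCN PNA cells. RPS6KA3, a kinase that ERK activates, read 981 in anti-MYCN PNA and 894 in mutated PNA cells, against 1407 in untreated cells. The adaptor gene SHC1 read 1358 in anti-MYCN PNA and 1370 in mutated PNA cells, against 1845 in untreated cells. The other SHC1 probe set past the filter differed from untreated by −0.01 in anti-MYCN PNA and −0.58 in mutated PNA cells. By its brightest probe set RPS6KA2 differed from untreated by 0.70 in anti-MYCN PNA and 0.40 in mutated PNA cells. The receptor tyrosine kinases had medians of 0.18 in anti-MYCN PNA and 0.14 in mutated PNA cells over 22 probe sets, with 1 at least 2-fold higher in anti-MYCN PNA cells. FGFR1 read 496 in anti-MYCN PNA and 391 in mutated PNA cells, against 280 in untreated cells by the brightest of 4 probe sets past the filter. All 4 were above untreated in anti-MYCN PNA cells, while in mutated PNA cells 1 of them gave −0.43. ERBB3 read 503 in anti-MYCN PNA and 385 in mutated PNA cells, against 281 in untreated cells. IGF1R differed from untreated by 0.18 in anti-MYCN PNA and 0.53 in mutated PNA cells. Not every receptor was higher. MET read 1254 in anti-MYCN PNA and 2994 in mutated PNA cells, against 2449 in untreated cells. Its other probe sets past the filter differed from untreated by −0.69 and −0.45 in anti-MYCN PNA cells. EGFR differed by −0.92 in anti-MYCN PNA and −0.16 in mutated PNA cells. Among the EPHA, PHLDA and EMP relatives, with 6 probe sets past the filter, medians were 0.21 in anti-MYCN PNA and 0.05 in mutated PNA cells, and 1 was at least 2-fold lower in anti-MYCN PNA cells. That probe set, of EPHA7, read 97 in anti-MYCN PNA and 293 in mutated PNA cells, against 288 in untreated cells. Between the PNA arrays it differed by −1.59, where EPHA2 differed by 0.97. EPHB4 differed from untreated by 0.23 in anti-MYCN PNA and 0.36 in mutated PNA cells, and its other probe set by −0.15 in anti-MYCN PNA and 0.08 in mutated PNA cells. PHLDA3 differed by 0.24 in anti-MYCN PNA and 0.09 in mutated PNA cells.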

How the data were processed

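Total RNA of RH30 cells was labelled with biotin by the Affymetrix one-cycle protocol and hybridised to 1 array per condition, 3 in all. The deposited value of a probe set is its signal intensity on a linear scale. The submitters' processing notes name MAS5 and GCOS. The genome build is not given in the sources used here. Scanner files and detection calls were not used here.

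Of 22277 probe sets, 62 are controls; of the other 22215, a GEO platform annotation gives 19064 a single gene, 1043 several and 2108 none. Symbols were updated by Entrez identifier with RefSeq GRCh38.p14. Arrays were scaled to 1 mean after trimming 2% at each end, which was already 500.2 on each array as deposited. The floor was 23.4, the filter a mean of 117, and 9899 single-gene probe sets passed. Like signal means 1 of 10 classes of equal size by mean signal. A difference counts at 2-fold. With 1 array a condition there is no test, and the number of arrays limits precision.

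The genes and lists were chosen with earlier results of these data known. Text names all 10 genes, MYCN, up to 3 genes per list lying on 1 side of untreated on both PNA arrays by the smaller difference, and the 5 genes nearest to DUSP6 and to SPRY4. DUSP10, HMGA1, GDF15, PLAUR, MET, EGFR and EPHA7 fall outside that rule and were named after their values were seen. The counting steps were tested on simulated data. Alternatives were other scalings, floors, filters, fold thresholds and probe set choices. The software was numpy 2.4.6 and pandas 2.3.3 under Python 3.11.15, with matplotlib 3.10.9 for plots.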

Additional observations from a re-analysis of the deposited data

How the results depend on the processing

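With 1 array per condition, array to array error is unknown, and dim probe sets such as those of DUSP4, DUSP5 and most of PHLDA1 limit what can be read. No paired analysis was possible because each condition has a single array. The main counts for the 10 genes were 6 probe sets lower in anti-MYCN PNA than untreated, 10 lower in mutated PNA than untreated, and 3 higher and 0 lower in anti-MYCN PNA than mutated PNA.

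Quantile normalization, the signals as deposited, no floor and a pseudocount of 16 kept each count for the 10 genes within 1.5 times. Median scaling left 1 of the 3 higher than mutated PNA, SPRY4. For the 9899 single-gene probe sets past the filter, it moved the median to −0.16 for anti-MYCN PNA minus untreated. For anti-MYCN PNA minus mutated PNA it moved their median to −0.14. No log2 difference of at least 1 changed sign under any of these 5. Of the 63 differences (21 probe sets, 3 comparisons), 8 moved without the floor, 10 with the pseudocount and 6 under quantile normalization. The filter at the 75th percentile, which keeps 2 of the 21 probe sets, gave 1, 1, 0 and 0 in the order above. With 1 probe set per gene the counts were 3 and 6 against untreated, and without _x_at and _s_at probe sets, with 5 left, 2 and 3, and 0 higher than mutated PNA. At 1.5-fold 8 were higher and 1 lower in anti-MYCN PNA than mutated PNA, and at 3-fold 1 was higher. No filter gave 1 higher than untreated and 1 lower than mutated PNA in anti-MYCN PNA cells. The share of all probe sets under these alternatives is not given here, so nothing is read from the counts about the 10 genes.

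For the 7 pathway lists, 10 probe sets differed 2-fold from untreated in anti-MYCN PNA cells, 3 in mutated PNA cells, and 6 between the PNA arrays. In that order the counts were 32, 13 and 21 at 1.5-fold, 1, 1 and 1 at 3-fold, 32, 10 and 35 with no filter, and 0, 1 and 1 with the filter at the 75th percentile. They were 4, 2 and 3 with 1 probe set per gene and 6, 2 and 3 without _x_at and _s_at probe sets. For these settings too the share of all probe sets is not given, so nothing is read from the counts about the lists. The cause was not tested beyond the smaller or larger number of probe sets counted.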
